A study of Homo sapiens with 70 samples.

Results

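DNA replication and S phase genes are described here as 43 genes taken by symbol from a count table of 78932 genes, and all 43 were found and passed the filter on low counts in every comparison. RNA came from sotorasib-resistant MIA PaCa-2 cells, an established line of pancreatic ductal adenocarcinoma (PDAC). All cells carried an inducible dCas9-KRAB, a nuclease-dead Cas9 joined to a repressor domain that silences the promoter a guide RNA points it to, and 1 of 3 guides. The guides sgZBTB11 #1 and sgZBTB11 #2 target ZBTB11, a zinc finger transcription factor, and sgNS is the control guide. Each guide was treated with doxycycline (DOX), which induces dCas9-KRAB, or with DMSO, and collected at 5 hr and at days 1, 3 and 5, which gave 24 groups and 70 libraries of poly(A) RNA. Groups held 3 libraries each except sgNS DMSO at day 1 and sgZBTB11 #1 DMSO at day 5, which held 2. Every group, DMSO included, consists of resistant cells that carry dCas9-KRAB, so neither drug-sensitive cells nor cells without the repressor serve as a reference. Whether the replicates were grown apart is not stated in the labels, and p-values therefore reflect only library-to-library spread, part of which may be technical.

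Chromosomal DNA is copied once per cell cycle. In G1 the origin recognition complex, CDC6 and CDT1 load the MCM2-7 ring on DNA, and in S phase CDC45 and the GINS complex turn that ring into the moving helicase. Primase and polymerase alpha start each strand, the RFC clamp loader places the PCNA ring, polymerases delta and epsilon extend, FEN1 and LIG1 join the Okazaki fragments, and thymidylate synthase and ribonucleotide reductase supply the nucleotides. Many of these genes are transcribed at the G1 to S boundary by E2F factors, released from RB1 when cyclin D and cyclin E kinases act, and they are low in cells that have stopped dividing.

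Total counts per library were 12068842 to 20627642. ZBTB11 itself stood at 54.9 to 55.6 CPM (counts scaled to library size by the TMM method) in sgZBTB11 #1 DOX libraries and 52.4 to 57.1 CPM in sgZBTB11 #1 DMSO libraries at 5 hr, so these overlapped. At the same time it was wholly lower with DOX in sgZBTB11 #2, at 47.9 to 49.1 CPM against 54.4 to 56.7 CPM with DMSO, and wholly higher with DOX in sgNS, at 53.8 to 60.1 CPM against 49.9 to 53.4 CPM with DMSO. At day 1 ZBTB11 was wholly lower with DOX in all 3 guides, the control included. It stood at 38.4 to 40.2 CPM with DOX against 45.2 to 50.7 CPM with DMSO in sgZBTB11 #1. In sgZBTB11 #2 it stood at 28.6 to 30 CPM against 41.03 to 48.9 CPM, and in sgNS at 45.5 to 48.2 CPM against 51.2 to 51.4 CPM. By day 3 it stood at 31.6 to 35.1 CPM with DOX against 45.6 to 46.9 CPM with DMSO in sgZBTB11 #1, and at 26.3 to 26.9 CPM with DOX against 44.4 to 47.2 CPM with DMSO in sgZBTB11 #2. In sgNS at day 3 the ranges were 48.8 to 55.5 CPM with DOX and 49.97 to 58.2 CPM with DMSO. At day 5 ZBTB11 stood at 35.01 to 38.4 CPM with DOX against 46.9 to 50.5 CPM with DMSO in sgZBTB11 #1. In sgZBTB11 #2 it stood at 27.9 to 28.7 CPM against 52 to 54.3 CPM. The ranges of sgNS overlapped at day 5, at 46.9 to 53.4 CPM with DOX and 51.2 to 60.1 CPM with DMSO. The keratin genes KRT8 and KRT18 and the mesenchymal gene VIM were abundant, with medians of 993, 1565 and 3332 TPM, a level scaled by transcript length and depth, whereas the epithelial adhesion gene EPCAM was at 0.00 to 0.13 TPM. Of the fibroblast markers COL1A2 reached 94.95 to 207 TPM and DCN, LUM and PDGFRB stayed at or under 0.37 TPM, and the leukocyte markers PTPRC and CD3E stayed at or under 0.09 TPM. CD68 was at 0.11 to 6.98 TPM, CD14 at 0.33 to 1.45 TPM, COL1A1 at 0.03 to 1.30 TPM and KRT19 at 44.6 to 139 TPM. Of the endothelial markers PECAM1 and VWF stayed at or under 0.19 TPM and CDH5 was at 0.86 to 12.6 TPM. Of the 43 genes, 14 share exon bases with a gene on the opposite strand in the GENCODE 29 annotation, and since the strand setting of the counts is not given, reads of such pairs cannot be told apart. The shared part is 39.1% of the exon bases of TYMS (with ENOSF1), 37% of CCNE2 (with INTS8), 22.7% of MCM2, 21.2% of GINS4 and 10.9% of GINS3. A gene on the same strand shares 20.2% of the exon bases of RRM2 and 14.9% of those of PRIM1.

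RefSeq promoters, from 250 bases before to 50 bases after a start site on GRCh38.p14, were found for 39 of the 43 genes, as 49 promoters. CCNE2, GINS4, MCM4 and MCM5 had none in the table. Each promoter was searched on both strands for the E2F words TTTCCCGC, TTTCGCGC, TTTGCCGC and TTTGGCGC, which overlap one another in some promoters. Such a word was present in 22 of the 49 promoters (44.9%) and in 21 of the 39 genes, against 3.31% of all 35116 promoters in the table and 4.86% of the 16208 promoters of genes tested over culture time. It was also present in 28.1% of the 57 promoters of other replication genes and 14.3% of the 21 promoters of G2/M genes. The word TTTGAA, the core of the CHR element of late cell cycle genes, was present in 1 of the 49 promoters of the replication genes (2.04%). It was present in 15.2% of all promoters and 10.4% of those of genes tested over culture time. The shares were 10.5% for other replication genes and 61.9% for G2/M genes. The word CCAAT was present in 61.2% of the promoters of the replication genes, against 34.6% of all promoters and 34.5% of those of genes tested over culture time. It was present in 45.6% of those of other replication genes and 81% of those of G2/M genes. A match is a description of letters and not evidence of a bound site. Of the 4 promoters printed here, that of MCM6 held the most E2F words, and those of TYMS, RRM2 and POLE belong to genes at the ends of the range of changes over culture time. Each E2F word is in capitals. MCM6 (chr2:135876394-135876693, minus strand) held 4 words in overlapping pairs and TYMS (chr18:657403-657702, plus strand) held 1. RRM2 (chr2:10122489-10122788, plus strand) held none in either of its promoters and had the largest fall of the 43 genes at day 3, and POLE (chr12:132687293-132687592, minus strand) held 1 and did not pass the test at day 3. All are written 5′ to 3′ on the gene's strand.
MCM6: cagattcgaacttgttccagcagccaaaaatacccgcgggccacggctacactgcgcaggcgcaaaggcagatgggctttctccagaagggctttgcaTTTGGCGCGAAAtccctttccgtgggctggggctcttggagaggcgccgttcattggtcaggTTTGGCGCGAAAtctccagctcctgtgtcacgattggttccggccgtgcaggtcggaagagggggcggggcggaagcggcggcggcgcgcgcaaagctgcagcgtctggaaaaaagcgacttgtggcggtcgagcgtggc
TYMS: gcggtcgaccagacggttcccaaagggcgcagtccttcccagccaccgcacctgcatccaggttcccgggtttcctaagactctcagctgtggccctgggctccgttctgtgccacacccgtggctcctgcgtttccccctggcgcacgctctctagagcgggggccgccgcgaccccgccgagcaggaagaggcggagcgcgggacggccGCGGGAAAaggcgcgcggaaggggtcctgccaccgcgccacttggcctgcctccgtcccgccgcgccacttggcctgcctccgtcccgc
RRM2: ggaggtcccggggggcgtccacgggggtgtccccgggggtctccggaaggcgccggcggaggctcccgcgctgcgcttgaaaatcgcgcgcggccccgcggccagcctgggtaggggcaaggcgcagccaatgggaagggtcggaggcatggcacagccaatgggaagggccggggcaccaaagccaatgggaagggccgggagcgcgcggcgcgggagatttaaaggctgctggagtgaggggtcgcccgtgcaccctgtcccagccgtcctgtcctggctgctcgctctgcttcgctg
POLE: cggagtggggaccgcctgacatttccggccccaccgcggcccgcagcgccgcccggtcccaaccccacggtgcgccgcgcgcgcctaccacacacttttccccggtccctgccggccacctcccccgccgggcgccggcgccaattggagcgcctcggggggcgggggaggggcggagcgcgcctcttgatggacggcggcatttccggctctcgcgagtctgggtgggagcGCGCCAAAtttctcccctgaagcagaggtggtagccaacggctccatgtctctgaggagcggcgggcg

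Across culture time in DMSO, nearly all of the 43 genes fell together after day 1. At day 3 relative to day 1, 42 of 43 were lower and the median log2 change was -0.96. At day 5 relative to day 3, 40 were lower and 1 was higher, with a median of -0.66 (-0.77 on log2 TPM, where the median of all genes moved by -0.18). A log2 change of -1 is a 2-fold fall. Among all 17598 genes tested with edgeR's quasi-likelihood test, 38.4% were called lower at day 3, with a median over all genes of 0.05, and 34.6% were called lower and 30.8% higher at day 5, with a median of -0.02. A fall of more than 1 on the log2 scale was found for 20 of the 43 genes at day 3, against 6.75% of all genes, and for 7 at day 5, against 1.71% of all genes. In 41 of the 43 genes every DMSO library of day 3 lay under every DMSO library of day 1, the exceptions being GINS1 and POLE. Day 5 lay wholly under day 3 in 35 genes. Such separation was not counted over all genes, so these counts stand without a background. The step in each guide alone gave 42, 42 and 40 lower genes at day 3 for sgZBTB11 #1, sgZBTB11 #2 and sgNS (35.4%, 32.8% and 32.1% of all genes), and 38, 38 and 39 at day 5 (23%, 29.3% and 25.4% of all genes). The DOX libraries, which are separate libraries, gave 42 lower at day 3 and 40 at day 5 (40.1% and 35.3% of all genes), with medians of -0.93 and -0.73.

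The genes of nucleotide supply had the largest falls of the 9 roles, with a median log2 change of -1.52 at day 3 and -1.22 at day 5. TYMS, thymidylate synthase, ranged over the DMSO libraries from 334 to 410 CPM (median 402) at 5 hr, 413 to 438 CPM (median 427) at day 1, 127 to 172 CPM (median 146) at day 3 and 42 to 56.8 CPM (median 43.7) at day 5. The ranges of day 1, day 3 and day 5 did not touch. Its log2 change was -1.51 at day 3 (SE 0.018, adjusted p = 3.25e-55) and -1.68 at day 5 (SE 0.022, adjusted p = 4.43e-51), the largest fall of the 43 genes in that step. RRM2, the small subunit of ribonucleotide reductase, ranged from 209 to 256 CPM (median 244) at 5 hr, 255 to 282 CPM (median 265) at day 1, 76.9 to 95.02 CPM (median 91.6) at day 3 and 32.9 to 36.3 CPM (median 34.5) at day 5. Here too the ranges of day 1, day 3 and day 5 did not touch. RRM2 changed by -1.59 at day 3 (SE 0.019, adjusted p = 2.98e-54) and by -1.36 at day 5 (SE 0.025, adjusted p = 2.49e-44). The large subunit RRM1 changed by -1.53 (SE 0.025, adjusted p = 1.45e-48) and -1.07 (SE 0.033, adjusted p = 4.43e-34). TK1, thymidine kinase of the salvage route, fell by 1.11 and 1.05 on the log2 scale. All 4 genes of this role were higher at day 1 than at 5 hr, by 0.17 to 0.42, in DOX libraries as well as in DMSO libraries.

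Origin licensing genes fell by a median of 1.18 on the log2 scale at day 3 and 0.74 at day 5. CDT1, the loader of MCM2-7 that is destroyed in S phase, changed by -1.51 at day 3 (SE 0.038, adjusted p = 3.30e-39). ORC1, the cell cycle regulated subunit of the origin recognition complex, changed by -1.33, CDC6 by -1.03 and ORC6 by -0.93. ORC1 was the least abundant of the 43 at day 1, with a median of 3.77 TPM in DMSO.

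The 6 subunits of the MCM2-7 helicase all fell by more than 1 on the log2 scale at day 3, between 1.02 for MCM6 and 1.42 for MCM2. MCM2 ranged over DMSO libraries from 112 to 126 CPM at 5 hr, 142 to 177 CPM at day 1, 53.5 to 64.5 CPM at day 3 and 33.7 to 50.8 CPM at day 5. Every day 5 library lay under every day 3 library, and day 3 under day 1. At day 5 the log2 changes of the subunits spread, from -0.80 for MCM5 and -0.77 for MCM4 to -0.06 for MCM7. MCM7 ranged from 290 to 383 CPM at 5 hr, 320 to 344 CPM at day 1, 127 to 141 CPM at day 3 and 123 to 140 CPM at day 5, and its last pair of ranges overlapped. Per transcript length, the median level in DMSO at day 1 was 166 TPM for MCM7, 129 TPM for MCM4, 65.4 TPM for MCM3, 57.8 TPM for MCM2, 41.6 TPM for MCM5 and 34.1 TPM for MCM6. The ring holds each subunit once, and the levels of their transcripts differed.

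Among helicase activators, GINS2, a subunit of the GINS complex, changed by -1.09 at day 3 and -1.27 at day 5 (SE 0.047, adjusted p = 1.89e-30). GINS1, another subunit of the same complex, changed by only -0.13 at day 3 and by -0.65 at day 5. CDC45, which bridges GINS and MCM2-7, changed by -0.96 and -0.38, and MCM10, which promotes helicase activation, by -1.06 and -0.93. At day 1 relative to 5 hr, GINS4 had changed by -0.58 (SE 0.017, adjusted p = 4.08e-35), GINS2 by -0.26, MCM10 by -0.23 and GINS3 by -0.19.

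The clamp and its loader fell less, with a median log2 change of -0.66 at day 3 and -0.42 at day 5, and the loader's subunits differed widely. PCNA, the sliding clamp, ranged over DMSO libraries from 215 to 248 CPM at 5 hr, 221 to 287 CPM at day 1, 127 to 147 CPM at day 3 and 79.2 to 105 CPM at day 5. RFC2, a small loader subunit, changed by -1.55 at day 3 (SE 0.029, adjusted p = 3.15e-45) and -1.17 at day 5 (SE 0.042, adjusted p = 2.48e-31). RFC1, the large subunit, changed by -0.53 at day 3 and by -0.03 at day 5, which did not pass the test. RFC1 ranged from 44.8 to 49.6 CPM at 5 hr, 52.8 to 62.2 CPM at day 1, 36.7 to 40.2 CPM at day 3 and 35.8 to 41.3 CPM at day 5, so its last pair of ranges overlapped. RFC5 changed by -0.30 at day 3 and -0.09 at day 5, RFC3 by -0.54 and -0.39, and RFC4 by -0.88 and -0.45.

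Polymerase and primase genes differed widely. PRIM1, the catalytic subunit of primase, ranged over DMSO libraries from 6.61 to 7.66 CPM at 5 hr, 12.5 to 16.4 CPM at day 1, 4.03 to 5.88 CPM at day 3 and 1.10 to 3.35 CPM at day 5. No neighbouring ranges overlapped. It changed by 0.99 at day 1 (SE 0.066, adjusted p = 1.71e-19), by -1.55 at day 3 (SE 0.071, adjusted p = 6.95e-27) and by -1.14 at day 5 (SE 0.105, adjusted p = 2.73e-14). POLE, the catalytic subunit of polymerase epsilon, ranged over DMSO libraries from 172 to 248 CPM at 5 hr, 137 to 190 CPM at day 1, 142 to 166 CPM at day 3 and 155 to 175 CPM at day 5. These ranges overlapped at every step, and its median levels were 50.5, 49.5, 48.6 and 44.1 TPM. POLE was lower by 0.32 at day 1, did not pass the test at day 3 (-0.03) and was higher by 0.06 at day 5 (SE 0.023, adjusted p = 0.0277), the one higher call of that step, which was lost on log2 TPM, without the filter on low counts or with length and GC trends removed. The other subunits of the same enzyme did fall, POLE2 by 0.72 and 0.68 and POLE4 by 1.08 and 0.43. POLD1, the catalytic subunit of polymerase delta, changed by -0.55 and -0.37, and POLA1, that of polymerase alpha, by -0.76 and -0.39. The Okazaki fragment genes FEN1, a flap nuclease, and LIG1, a DNA ligase, changed by -0.81 and -0.44 at day 3 and by -0.79 and -0.39 at day 5.

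E2F1 and E2F2, which are among the activator E2F factors, changed by -1.12 and -1.04 at day 3 and by -0.63 and -0.95 at day 5. The cyclins that act with CDK2 at the same boundary fell less at day 3, with CCNE1 at -0.48 and CCNE2 at -0.32, and CCNE1 did not pass the test at day 5 (-0.07). The 5 chromatin and ubiquitin ligase genes all fell in both steps. UHRF1, which brings the maintenance DNA methylase to new DNA, changed by -0.84 and -0.76, the chromatin assembly subunits CHAF1A and CHAF1B by -0.93 and -0.79 at day 3, and DTL, the substrate receptor that marks CDT1 for destruction, by -0.79. SLBP, the histone stem-loop binding protein, changed least of the 5, by -0.49 and -0.28. Genes with an E2F word in a promoter had a median log2 change of -1.02 at day 3 (21 genes), against -0.93 for those with a promoter and no such word (18 genes), and the medians at day 5 were -0.65 and -0.69.

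**Figure D1:**
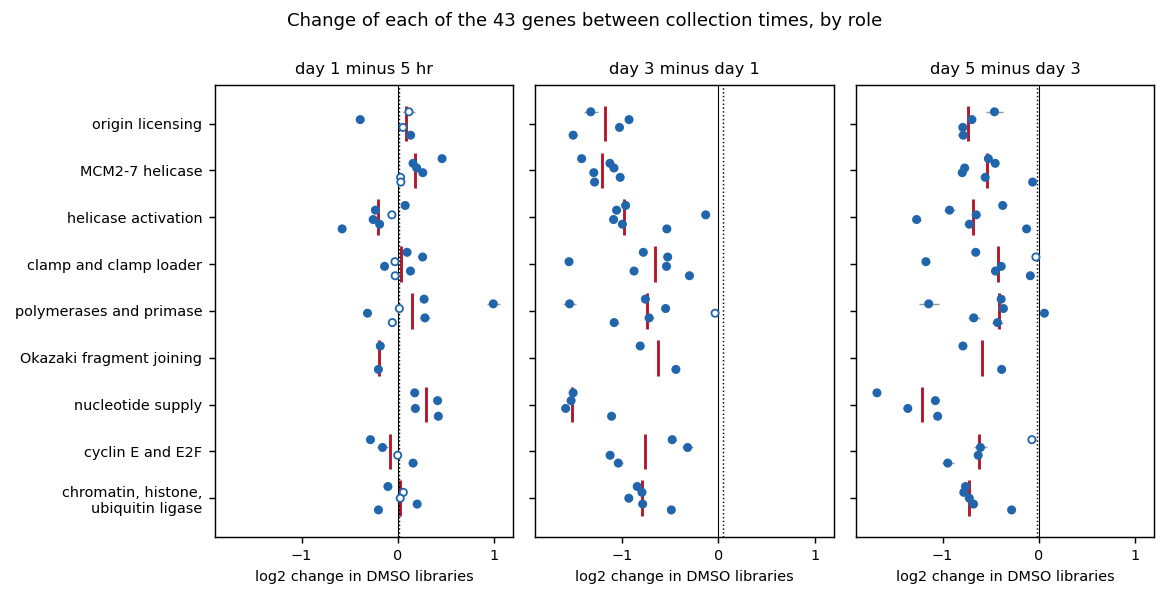
Log2 change of each of the 43 genes (points, with standard error bars) between successive collection times in DMSO libraries, by role; filled points passed an adjusted p of 0.05, red bars are the medians of a role and the dotted line is the median of all genes. Points lie on both sides of 0 at day 1, and at day 3 all but POLE passed the test to the left of it, with the red bar of nucleotide supply farthest left at -1.52.

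Between 5 hr and day 1 the genes did not move together. Of the 43, 18 were higher and 13 lower, with a median of 0.03, against 34.1% of all genes called higher and 33.1% called lower. On log2 TPM, where the median of all genes shifted by 0.13, the split was 29 higher and 3 lower. Of all 16554 genes on log2 TPM, 7596 were higher and 2825 lower. In the DOX libraries the split of the 43 was 13 higher and 20 lower (33.6% and 35% of all genes). The guides differed in DMSO alone, with 25 higher and 6 lower in sgZBTB11 #1 (29.4% and 28.8% of all genes), 20 and 12 in sgZBTB11 #2 (26.1% and 25.7%), and 7 and 18 in sgNS (22.6% and 24.2%), a difference that was not tested. Day 1 libraries lay wholly above 5 hr libraries in 9 genes and wholly under them in 4, which was not counted over all genes.

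Other genes of the cell cycle changed over the same days. Of 52 further replication genes, 45 were lower and 3 higher at day 3, with a median log2 change of -0.57, and 43 were lower and 4 higher at day 5, with a median of -0.43. The polymerase delta subunit POLD2 changed by -1.54 at day 3 and the S phase cyclin CCNA2 by -1.26 at day 5. All 20 G2/M genes were lower in both steps, with medians of -0.89 and -1.03. PLK1, a mitotic kinase, changed by -2.14 at day 3, and BIRC5, survivin, by -1.39 at day 5. At day 1 these G2/M genes had instead been higher in 19 of 20, with a median of 0.71. Of 12 G1 regulators, 8 were lower and 3 higher at day 3, with CDK4 at -1.07, and the kinase inhibitor CDKN1B at 0.39. In bulk RNA, fewer cells in S phase and less of these transcripts per cell cannot be told apart.

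The 43 genes together took 0.398% to 0.427% of all counts in the DMSO libraries of 5 hr, 0.421% to 0.496% at day 1, 0.235% to 0.261% at day 3 and 0.145% to 0.158% at day 5. Over the same libraries the share of mitochondrially encoded counts was 12.5% to 14.3%, 10.1% to 12.4%, 17.8% to 22.2% and 25.98% to 33.7%. With the mitochondrially encoded genes left out before scaling, 42 of the 43 genes were lower at day 3 and 40 at day 5. Of all 17698 genes in that fit, 6780 and 5976 were lower. That fit changes only the scaling, and the part of the mitochondrial share in the change was not tested. Collection time and any batch of preparation or sequencing cannot be told apart.

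**Figure D2:**
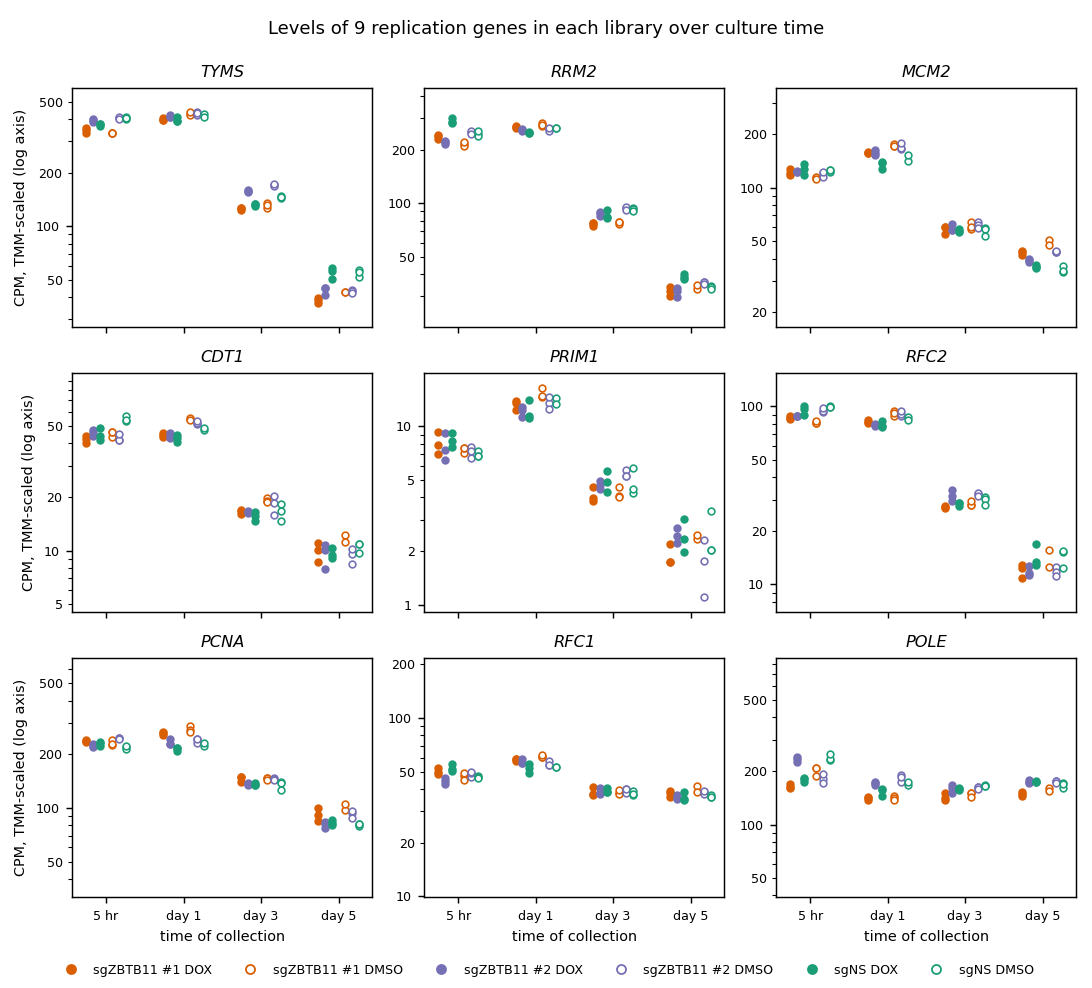
Levels of 9 genes in each library (CPM, TMM-scaled, log axes that all span the same ratio) at the 4 collection times, with DOX libraries (filled) left of DMSO libraries (open) and guides by colour. TYMS has DMSO medians of 402, 427, 146 and 43.7 CPM in order of time, while POLE lies between 137 and 248 CPM in DMSO libraries throughout.

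The response to DOX was measured within each guide, and the net response is the mean change of both ZBTB11 guides minus the change of sgNS. At 5 hr DOX changed many replication genes in all 3 guides, and the polymerase genes POLE and POLD1 and the clamp loader gene RFC3 moved in opposite directions in the ZBTB11 guides. Of the 43, DOX raised 9 and lowered 10 in sgZBTB11 #1 (17.4% of all 15623 genes higher, 15.4% lower), raised 4 and lowered 9 in sgZBTB11 #2 (8.35% higher, 8.67% lower), and raised 15 and lowered 10 in sgNS (20.9% higher, 20.1% lower). The net response had 7 higher and 14 lower (14.7% of all genes higher, 15.2% lower). With higher and lower calls added, a larger share of the 43 than of all genes was called in each of these comparisons. For genes called higher, the shares in sgZBTB11 #1, sgZBTB11 #2 and the net response were close to those of all genes. The same held for genes called lower in sgNS. These differences in share were not tested, and the 43 were not compared with genes of similar level. POLE had 159, 163 and 168 CPM in sgZBTB11 #1 DOX libraries, against 187, 208 and 207 CPM in sgZBTB11 #1 DMSO libraries. In sgZBTB11 #2 it had 223, 239 and 235 CPM with DOX, against 180, 172 and 192 CPM with DMSO. In sgNS it had 174, 180 and 183 CPM with DOX, against 231, 233 and 248 CPM with DMSO. DOX and DMSO libraries did not overlap in any guide, and the direction in sgZBTB11 #2 was opposite to that in sgZBTB11 #1 and sgNS. On the log2 scale POLE changed by -0.29 with DOX in sgZBTB11 #1 (SE 0.040, adjusted p = 1.21e-06), by 0.37 in sgZBTB11 #2 (SE 0.040, adjusted p = 8.11e-08) and by -0.39 in sgNS (SE 0.040, adjusted p = 2.83e-09). On log2 TPM the change in sgZBTB11 #2 was 0.27 and was called, and those in sgZBTB11 #1 (-0.03) and sgNS (-0.0045) were not. DTL moved in the opposite directions, with 49.8, 49.03 and 46.9 CPM in sgZBTB11 #1 DOX libraries, against 41.5, 43.6 and 44.8 CPM with DMSO. In sgZBTB11 #2 DTL had 40.3, 39.5 and 40.8 CPM with DOX against 48.1, 46.7 and 49 CPM with DMSO, and in sgNS 53, 53.3 and 55.4 CPM with DOX against 38.6, 41.9 and 41.8 CPM with DMSO. The net log2 changes were 0.42 for POLE (SE 0.049, adjusted p = 7.00e-08; 0.12 and not called on log2 TPM) and -0.46 for DTL (SE 0.058, adjusted p = 5.94e-08). LIG1 changed in the directions of POLE, by -0.19 with sgZBTB11 #1, 0.19 with sgZBTB11 #2 and -0.18 with sgNS, and so did POLD1, by -0.17, 0.32 and -0.28. RFC3 changed in the directions of DTL, by 0.18, -0.22 and 0.34, and so did MCM10, by 0.27, -0.20 and 0.29. RRM1 and RRM2 were higher with DOX in sgZBTB11 #1 (0.16 and 0.14) and sgNS (0.23 and 0.26) and lower in sgZBTB11 #2 (-0.13 and -0.17).

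The difference between the ZBTB11 guides at 5 hr, sgZBTB11 #2 minus sgZBTB11 #1, passed the test for 24 of the 43 genes, 11 higher and 13 lower (16.7% of all genes higher, 18.4% lower). It was 0.66 for POLE (SE 0.057, adjusted p = 1.05e-10) and 0.49 for POLD1 (SE 0.059, adjusted p = 1.31e-08). It was negative for MCM10 (-0.47), CCNE2 (-0.44), DTL (-0.41) and RFC3 (-0.40). The share of mitochondrially encoded counts at 5 hr moved with these directions, at 12.2% to 12.4% with DOX against 14.04% to 14.1% with DMSO in sgZBTB11 #1, 13.1% to 13.4% against 12.5% to 12.7% in sgZBTB11 #2, and 11.9% to 12.4% against 13.7% to 14.3% in sgNS, and its part was not tested. With the trends of gene length and GC content removed, the net count was 10 in place of 21, with 2 higher and 8 lower, the split was 12 higher and 5 lower in sgNS and 5 and 13 between the guides, and POLD1 changed by a net 0.12 in place of 0.35 and was not called. Of all 15623 genes in that setting, 1479 were higher and 1329 lower in the net response, 2048 and 2349 in sgNS, and 2463 and 2257 between the guides. On log2 TPM, where the median of all genes moved by 0.17 in sgNS and by -0.13 in the net response, the splits were 20 higher and 0 lower in sgZBTB11 #1, 2 and 9 in sgZBTB11 #2, 31 and 1 in sgNS, 1 and 26 in the net response and 2 and 20 between the guides. Of all 14549 genes on log2 TPM, 3457 were higher and 739 lower in sgZBTB11 #1, 455 and 777 in sgZBTB11 #2, and 5655 and 677 in sgNS. The splits of all genes were 505 and 3690 in the net response and 1006 and 3256 between the guides. Of the 52 other replication genes, 7 were higher and 14 lower in the net response at 5 hr, with the helicase RECQL4 at 0.46 and the repressor E2F7 at -0.44, a call lost on log2 TPM and with length and GC trends removed. Of 20 G2/M genes 5 were lower, among them the mitotic kinesin KIF11 at -0.38 (-0.10 and not called with length and GC trends removed), and of 12 G1 regulators 1 was higher and 3 lower, with RB1 at -0.52.

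At day 1 a small set of replication genes responded to DOX in all 3 guides, the control included. DOX lowered 7 and raised 1 of the 43 in sgZBTB11 #1 (3.20% of all 16275 genes lower, 1.64% higher), lowered 10 and raised 2 in sgZBTB11 #2 (4.45% lower, 3.43% higher) and lowered 4 and raised 1 in sgNS (1.63% lower, 0.559% higher). On log2 TPM 4 were lower and 1 higher in sgZBTB11 #1, 3 lower and 1 higher in sgZBTB11 #2, and 1 lower and 1 higher in sgNS, where DESeq2 called 2 lower and 0 higher. Of all 15041 genes on log2 TPM, 96 were lower and 68 higher in sgZBTB11 #1, 119 and 162 in sgZBTB11 #2, and 30 and 43 in sgNS. DESeq2 in sgNS called 137 lower and 35 higher of all 16275. GINS3, a GINS subunit, had 46.2, 40.4 and 41.3 CPM with DOX against 35.6, 34.8 and 34.8 CPM with DMSO in sgZBTB11 #1. It had 36.9, 35.5 and 37.4 CPM with DOX against 29.5, 30.5 and 31.6 CPM with DMSO in sgZBTB11 #2, and 32.1, 33.1 and 32.9 CPM with DOX against 28.8 and 25.6 CPM with DMSO in sgNS. GINS3 was thus higher with DOX in every guide without overlap, with log2 changes of 0.30 (SE 0.053, adjusted p = 0.000299), 0.28 (SE 0.056, adjusted p = 0.00135) and 0.28 (SE 0.067, adjusted p = 0.015). GINS4, a partner in the same complex, moved the other way, with 213, 215 and 221 CPM with DOX against 263, 261 and 263 CPM with DMSO in sgZBTB11 #1. It had 231, 231 and 239 CPM with DOX against 289, 290 and 284 CPM with DMSO in sgZBTB11 #2, and 264, 250 and 262 CPM with DOX against 321 and 319 CPM with DMSO in sgNS. Its log2 changes were -0.26, -0.28 and -0.29, with adjusted p-values of 3.33e-08, 2.55e-09 and 4.83e-08. The helicase subunits MCM7 (-0.22, -0.21 and -0.14) and MCM5 (-0.19, -0.15 and -0.14) also fell with DOX in sgZBTB11 #1, sgZBTB11 #2 and sgNS. Outside the 43, POLD2 fell in the same guides by 0.18, 0.12 and 0.14 on the log2 scale. Several of these calls depended on the setting. In sgNS the call of MCM5 (adjusted p = 0.0474) was lost by DESeq2, on log2 TPM, without the filter on low counts, with length and GC trends removed, with the replicate block by library name and without any 1 library of sgNS. Also in sgNS, the call of GINS3 was lost by DESeq2 and without replicate 2 of the DMSO libraries, and that of MCM7 on log2 TPM and without replicate 1 of them. The call of POLD2 was lost on log2 TPM in sgNS and sgZBTB11 #2, with length and GC trends removed in sgZBTB11 #2, and without either DMSO library or DOX replicate 1 in sgNS. That of GINS4 was lost on log2 TPM in sgZBTB11 #1.

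MCM4 (chr8:47960941-47978160, GRCh38) was the one replication gene whose net response passed the test at day 1, against 0.0737% of all genes (12 genes). It had 227, 222 and 233 CPM with DOX against 308, 308 and 301 CPM with DMSO in sgZBTB11 #1. It had 258, 259 and 261 CPM with DOX against 298, 302 and 298 CPM with DMSO in sgZBTB11 #2, and 251, 242 and 243 CPM with DOX against 250 and 244 CPM with DMSO in sgNS. DOX libraries lay under DMSO libraries in both ZBTB11 guides and overlapped them in sgNS. The DMSO libraries of sgNS lay under the DOX libraries of sgZBTB11 #2. The net change was -0.30 (SE 0.036, adjusted p = 4.58e-06), with separate changes of -0.41 for sgZBTB11 #1, -0.19 for sgZBTB11 #2 and 0.01 for sgNS. The difference between the guides, 0.22 (SE 0.038, adjusted p = 0.00944), was the one call of its kind among the 43, against 0.0614% of all genes, and was lost without replicate 2 of sgZBTB11 #1 DMSO or of sgZBTB11 #1 DOX. On log2 TPM the net change of MCM4 was -0.27 and neither call passed. MCM4 at 5 hr, day 3 and day 5 had net changes of -0.03, -0.06 and -0.07 that did not pass the test, and the other subunits of MCM2-7 had no net call at day 1. CDT1 fell with DOX in sgZBTB11 #1 (-0.28, SE 0.044, adjusted p = 4.22e-05) and in sgZBTB11 #2 (-0.22, SE 0.045, adjusted p = 0.00146), with -0.16 in sgNS (adjusted p = 0.105). CCNE2 rose with DOX in sgZBTB11 #2 (0.32, SE 0.090, adjusted p = 0.0213), with 0.05 in sgZBTB11 #1 and 0.07 in sgNS. The sgNS count of 5 rested on single libraries. It was 2 without either sgNS DMSO library, 3 without replicate 2 of sgZBTB11 #1 DMSO, replicate 2 or 3 of sgZBTB11 #1 DOX, or replicate 1 or 2 of sgNS DOX, and 8 without replicate 2 of sgZBTB11 #2 DMSO.

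At day 3 few replication genes responded to DOX. With edgeR's quasi-likelihood test 0 of 43 had a net response (0.493% of all 16645 genes called), with 1 higher and 3 lower at an unadjusted p under 0.05, and DESeq2 also called 0. The net changes of the 43 lay between -0.19 and 0.17, and those farthest from 0 on the lower side were CDC45 at -0.19 and SLBP at -0.18. MCM7 was lower with DOX in sgZBTB11 #1 (-0.14, SE 0.035, adjusted p = 0.0419, 0.541% of all genes lower), and 0 passed in sgZBTB11 #2 (1.17% of all genes called), where the unadjusted p of 10 lower genes was under 0.05 and DESeq2 called 0. In sgNS, TYMS (-0.14, SE 0.033, adjusted p = 0.0212) and GINS4 (-0.13, SE 0.032, adjusted p = 0.0242) were lower, against 0.475% of all genes. TYMS in sgNS had 130, 134 and 134 CPM with DOX, against 148, 145 and 146 CPM with DMSO. GINS4 in sgNS had 199, 205 and 210 CPM with DOX, against 226, 224 and 224 CPM with DMSO. The difference between the ZBTB11 guides passed for 0 of 43 (0.0180% of all genes called), with 1 at an unadjusted p under 0.05 and 0 by DESeq2. The percentages of all genes given for day 3 are at the adjusted threshold. The counts at an unadjusted p therefore stand here without a background. The call of MCM7 in sgZBTB11 #1 was lost with the replicate block (adjusted p = 0.0504), by DESeq2 (adjusted p = 0.117), on log2 TPM (adjusted p = 0.352), without the filter on low counts (adjusted p = 0.134) and with length and GC trends removed (adjusted p = 0.0850). It was also lost without any 1 of its 3 DMSO libraries, replicate 1 or 3 of its DOX libraries, or replicate 2 or 3 of sgZBTB11 #2 DMSO. The count of 0 in sgZBTB11 #2 became 1 without replicate 2 of its DOX libraries or replicate 1 of sgNS DMSO. Both sgNS calls were lost without replicate 2 or 3 of sgNS DMSO or replicate 1 or 2 of sgNS DOX, and 1 was lost without replicate 3 of sgNS DOX.

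**Figure D3:**
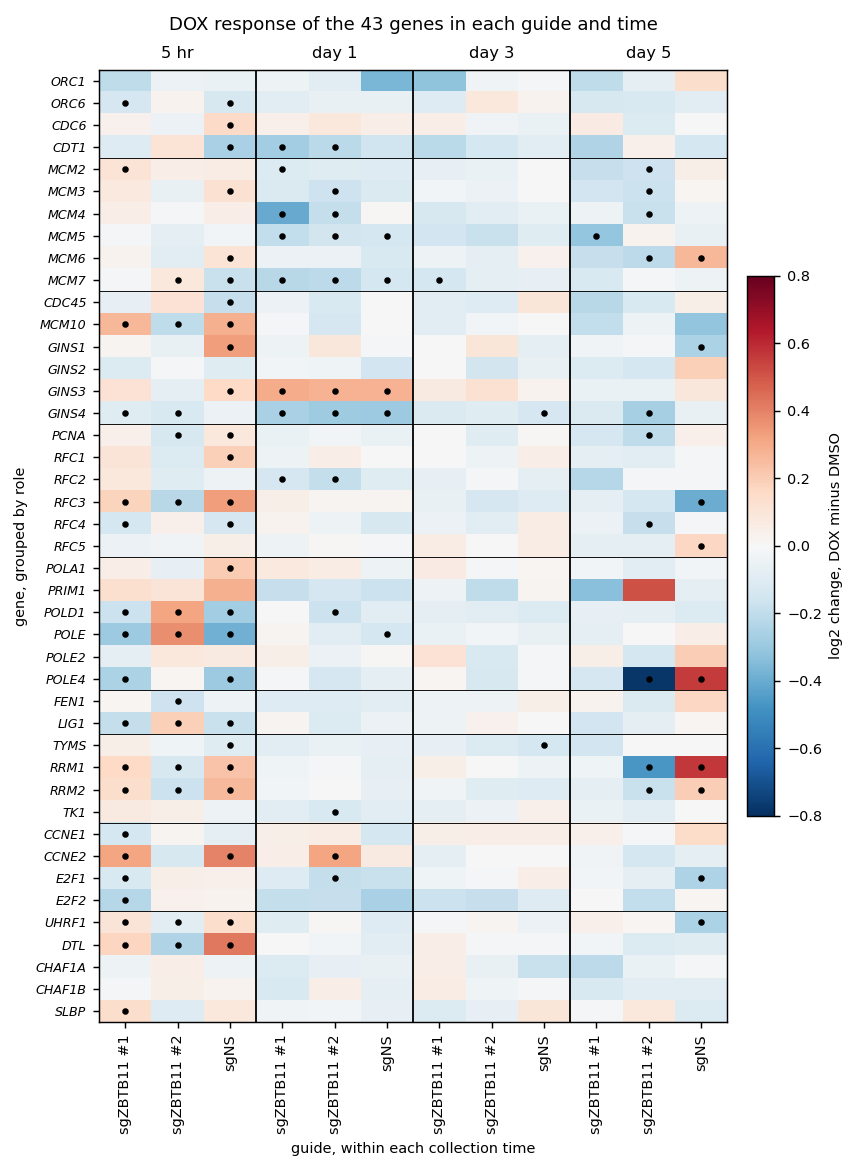
Log2 change with DOX relative to DMSO for each of the 43 genes (rows, grouped by role) in each guide at each collection time (columns); black dots mark changes with an adjusted p under 0.05 over all genes. Dots are dense at 5 hr, where POLE and POLD1 are higher in sgZBTB11 #2 and lower in sgZBTB11 #1 and sgNS, and sparse at day 3.

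At day 5 the net response passed the test for 11 of the 43 genes, 9 lower and 2 higher, against 10.3% of all 16809 genes lower and 8.95% higher. On log2 TPM, where the median of all net changes was 0.19, the split was reversed, at 2 lower and 6 higher. All genes shifted the same way there, with 362 lower and 4487 higher of 15286. The control guide itself responded at this time. DOX raised 5 and lowered 4 of the 43 in sgNS (8.87% of all genes higher, 8.47% lower), lowered 10 in sgZBTB11 #2 (6% lower), and lowered 1 in sgZBTB11 #1 (0.773% lower). On log2 TPM, where the median of all genes moved by -0.16 in sgNS, 1 was higher and 19 lower in sgNS. Of all 15286 genes, 258 were higher and 4758 lower there. The count of 10 in sgZBTB11 #2 was 3 on log2 TPM and 6 by DESeq2, all lower, and the 1 call in sgZBTB11 #1 was lost in both. Among all genes in sgZBTB11 #2, 448 of 15286 were lower on log2 TPM and 698 of 16809 by DESeq2. POLE4 (chr2:74958643-74970128), a small histone-fold subunit of polymerase epsilon, had 8.08, 9.27 and 8.14 CPM with DOX against 9.22 and 9.45 CPM with DMSO in sgZBTB11 #1. It had 5.72, 7.10 and 6.20 CPM with DOX against 11.5, 9.74 and 11.2 CPM with DMSO in sgZBTB11 #2, and 12.8, 13.6 and 12.2 CPM with DOX against 7.37, 9.48 and 9.04 CPM with DMSO in sgNS. DOX libraries of sgZBTB11 #2 lay wholly under their DMSO libraries, those of sgNS wholly above, and those of sgZBTB11 #1 overlapped them. The net log2 change was -1.02 (SE 0.130, adjusted p = 1.68e-08), from -0.13 in sgZBTB11 #1 (adjusted p = 0.746), -0.78 in sgZBTB11 #2 (adjusted p = 5.25e-07) and 0.56 in sgNS (adjusted p = 2.59e-05). Its net change was between -1.08 and -0.61 over the 23 alternatives and was called in each.

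RRM1 (chr11:4094685-4138932) had the same pattern of overlaps. It had 21.1, 19.96 and 19.6 CPM with DOX against 21.1 and 20.5 CPM with DMSO in sgZBTB11 #1. It had 16.8, 16.1 and 16.9 CPM with DOX against 22.5, 22.3 and 24.2 CPM with DMSO in sgZBTB11 #2, and 24.3, 26.3 and 26.3 CPM with DOX against 16.7, 16.7 and 18.1 CPM with DMSO in sgNS. The net response of RRM1 was -0.81 on the log2 scale (SE 0.086, adjusted p = 7.88e-11), from -0.03 in sgZBTB11 #1 (adjusted p = 0.929), -0.47 in sgZBTB11 #2 (adjusted p = 1.72e-06) and 0.56 in sgNS (adjusted p = 4.30e-09). MCM6 changed by a net -0.47 (SE 0.071, adjusted p = 9.15e-07), from -0.18, which did not pass the test, for sgZBTB11 #1, -0.21 for sgZBTB11 #2 and 0.27 for sgNS. RRM2 changed by a net -0.32 (SE 0.070, adjusted p = 0.000501). RFC5, MCM2, PCNA, MCM3 and GINS4 were lower by a net 0.25, 0.22, 0.21, 0.17 and 0.13. On log2 TPM only 2 replication genes had a lower net call, POLE4 among them. Most of the net falls given here were thus not called there. Part of the net fall of RRM2 and RFC5 was a rise in sgNS, where DOX raised them by 0.19 and 0.17 and both were called. In sgNS the changes of MCM2 (0.05), PCNA (0.04), MCM3 (0.01) and GINS4 (-0.06) were not called. RFC3 was higher by a net 0.29 (SE 0.072, adjusted p = 0.00234) and UHRF1 by 0.28 (SE 0.064, adjusted p = 0.000863), and in sgNS alone DOX lowered them by 0.40 and 0.25. The difference between the ZBTB11 guides passed for POLE4 (-0.65, SE 0.165, adjusted p = 0.0176) and RRM1 (-0.44, SE 0.105, adjusted p = 0.00994), against 2.58% of all genes. The count of 2 was 0 by DESeq2, 1 on log2 TPM and 0 without replicate 2 of sgZBTB11 #1 DMSO. It was 1 without replicate 1 of sgZBTB11 #1 DMSO, replicate 2 of sgZBTB11 #1 DOX, replicate 1 of sgZBTB11 #2 DMSO or replicate 1 of sgZBTB11 #2 DOX. The one call in sgZBTB11 #1 was MCM5, at -0.31 (SE 0.078, adjusted p = 0.0313), and it was lost without either DMSO library or replicate 2 or 3 of the DOX libraries of that guide, whereas 2 genes passed without replicate 2 of sgNS DMSO. The count of 10 in sgZBTB11 #2 was 6 without replicate 1 or 2 of its DMSO libraries or replicate 1 of its DOX libraries. The share of mitochondrially encoded counts at day 5 was 32.8% to 33.1% with DOX against 33.5% to 33.7% with DMSO in sgZBTB11 #1, 31.4% to 31.5% against 30.96% to 31.5% in sgZBTB11 #2, and 29.4% to 29.8% against 25.98% to 26.4% in sgNS, and its part in these changes was not tested.

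**Figure D4:**
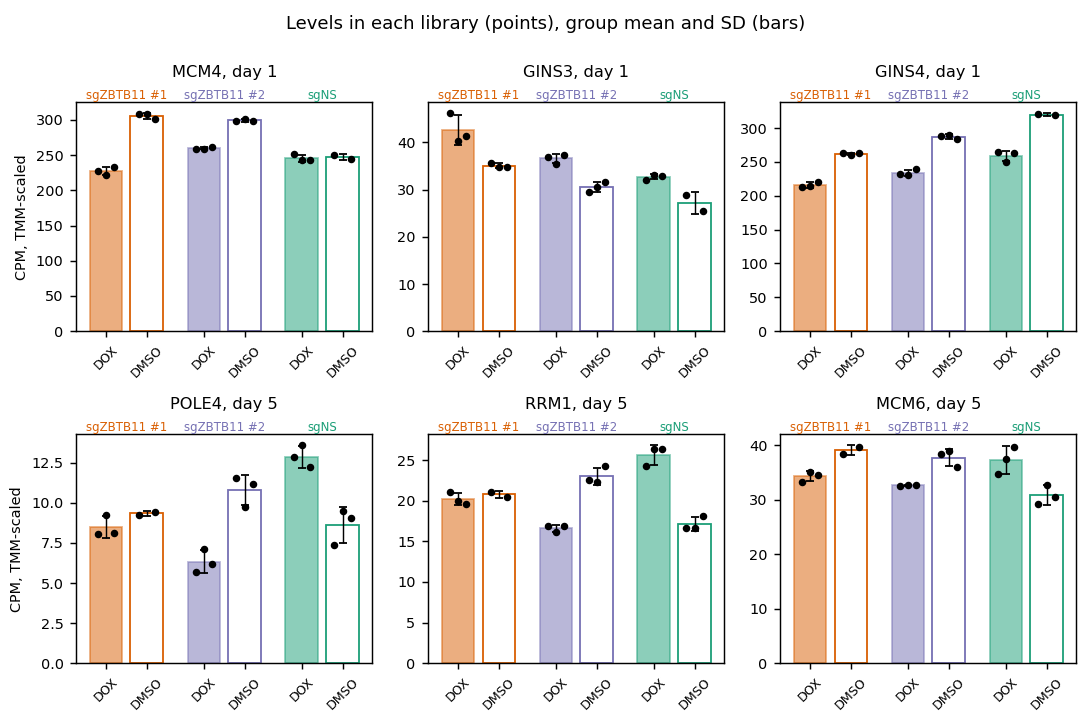
Levels in each library (points) with the group mean (bar) and SD (line) for MCM4, GINS3 and GINS4 at day 1 and POLE4, RRM1 and MCM6 at day 5 (CPM, TMM-scaled), with DOX left of DMSO in each guide. MCM4 is lower with DOX in both ZBTB11 guides and level in sgNS. GINS3 is higher and GINS4 lower with DOX in all 3 guides. POLE4 and RRM1 are lower with DOX in sgZBTB11 #2 and higher in sgNS.

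For the 43 genes as a whole, the median DOX change at day 5 was -0.08 with either ZBTB11 guide and -0.01 with the control guide, beside a median of 0.00 over all genes in each guide. Of the 52 other replication genes, 12 were lower and 3 higher in the net response at day 5, among them ORC5 at -0.38, DONSON at -0.36 and RPA3 at -0.35, and the chromatin remodeller HELLS at 0.34. Of 11 G1 regulators tested, RB1 (0.48) and the cyclin CCND1 (0.36) were higher. Of 20 G2/M genes 1 was lower, TPX2 at -0.22 (0.03 on log2 TPM), and 1 higher, TOP2A at 0.12. Part of each of these named net changes was an opposite change in sgNS. With DOX in sgNS, ORC5 changed by 0.29, DONSON by 0.22, RPA3 by 0.21 and TPX2 by 0.17. HELLS changed there by -0.35, RB1 by -0.31, CCND1 by -0.23 and TOP2A by -0.13, and each of these changes was called.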

How the data were processed

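RNA-seq was available for 70 libraries in 24 groups. The authors deposited expected counts and TPM per gene for each library, and RSEM and GRCh38.p14 are named per the submitters' processing notes. Which aligner, gene annotation release and strand setting were used is not given in the sources used here. TPM is scaled within a library by the authors and keeps no depth, so the deposited expected counts were the basis of the tests, rounded to whole numbers (5.13% of values were not whole, with a tolerance of 0). Per library 12068842 to 20627642 counts were summed, and 33163 of 78932 genes had no count. Among 68 pairs of libraries of a group none was identical, and chi-square per degree of freedom ran from 1.33 to 4.93.

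Genes were kept by edgeR's filterByExpr, scaled by TMM and tested with edgeR 4.0.16's robust quasi-likelihood test in R 4.3.3, with Benjamini-Hochberg adjustment over all genes tested and a threshold of 0.05. Each collection time was fitted alone with its 6 groups for the DOX changes, the net response and the difference between ZBTB11 guides; the 34 DMSO libraries were fitted together for the time steps, averaged over the 3 guides. The code was tested on simulated data. Alternatives were RLE scaling, no filter, DESeq2 1.42.0, a replicate block (by title number and, added later, by library name), limma 3.58.1 on log2(TPM + 1) for genes at 1 TPM or more in 3 libraries, removal of length and GC trends (GENCODE 29), each library left out, and, for time, the DOX libraries and a fit without mitochondrially encoded genes.

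The members, the lists of other replication, G1 and G2/M genes and the tests were chosen with earlier results of these data known. Members given with a standard error and adjusted p are up to 6 of the largest changes that passed in a comparison, with values per library for up to 2 of them; other replication, G1 and G2/M genes are up to 4 per list by the same rule. POLE, RFC1, MCM2, MCM7 and PCNA over time, RRM1 in the time steps, the CPM ranges of PRIM1, and MCM4, GINS3 and GINS4 at day 1 were added after their values were seen.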

Additional observations from a re-analysis of the deposited data

Results flagged for a closer look

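The difference between the DOX responses of sgZBTB11 #2 and sgZBTB11 #1, taken as sgZBTB11 #2 minus sgZBTB11 #1, passed the quasi-likelihood test of that difference for the genes listed here, which are the largest such differences of each time. At 5 hr it was 0.66 for POLE and 0.49 for POLD1, with positive values meaning a higher response in sgZBTB11 #2. At the same time it was -0.47 for MCM10, -0.44 for CCNE2, -0.41 for DTL and -0.40 for RFC3. At day 1 it was 0.22 for MCM4, whose level was lower with DOX in both guides. At day 5 it was -0.65 for POLE4 and -0.44 for RRM1, both lower with DOX in sgZBTB11 #2 and not called in sgZBTB11 #1. The call of MCM4 was lost on log2 TPM, and both day 5 calls were lost by DESeq2. Each of these calls at day 1 and day 5 was also lost without some single libraries.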

How the results depend on the processing

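Most counts of the 43 genes called kept within 1.5 times under the alternatives. That rule takes calls in both directions together. On log2 TPM several totals kept within it while the split of higher and lower genes changed, as given above. Among these were the net response at 5 hr and day 5, sgNS at 5 hr, and the step from 5 hr to day 1. On log2 TPM the count was 5 in place of 8 for sgZBTB11 #1 at day 1, 4 in place of 12 for sgZBTB11 #2 at day 1, 2 in place of 5 for sgNS at day 1, 0 in place of 1 for the net response and for the guide difference at day 1, 0 in place of 1 for sgZBTB11 #1 at days 3 and 5, 1 in place of 2 for sgNS at day 3, 3 in place of 10 for sgZBTB11 #2 at day 5, 20 in place of 9 for sgNS at day 5 and 1 in place of 2 for the guide difference at day 5. DESeq2 gave 15 in place of 24 for the guide difference at 5 hr, 2 in place of 5 for sgNS at day 1, 0 in place of 1 for sgZBTB11 #1 at days 3 and 5, 6 in place of 10 for sgZBTB11 #2 at day 5 and 0 in place of 2 for the guide difference at day 5. With length and GC trends removed the net count at 5 hr was 10 in place of 21, and 2 genes were called in sgZBTB11 #1 at days 3 and 5 and in sgZBTB11 #2 at day 3. Without the filter on low counts 0 were called in sgZBTB11 #1 at day 3. The cause was not tested.

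Libraries with the same number in their titles did not deviate together (34 pairs, r from -0.15 to 0.305, 6 over 0.1). The library names number the sgNS DMSO libraries at day 1 as 2 and 3 where the titles have 1 and 2. Paired by library name, 5 of 34 were over 0.1, and this replicate block, added after the data were seen, gave 7, 12, 4, 1 and 1 calls at day 1 in sgZBTB11 #1, sgZBTB11 #2, sgNS, the net response and the guide difference, and 31, 42 and 41 for the time steps. The replicate block gave 0 in place of 1 for sgZBTB11 #1 at day 3, and otherwise changed no count by over 1.5 times, with net counts of 21, 1, 0 and 11 at 5 hr, day 1, day 3 and day 5.

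With each library left out, the counts for sgZBTB11 #1, sgZBTB11 #2, sgNS, the net response and the guide difference were 14 to 20, 10 to 14, 22 to 26, 17 to 22 and 19 to 24 at 5 hr; 6 to 11, 8 to 15, 2 to 8, 1 to 1 and 0 to 1 at day 1; 0 to 1, 0 to 1, 0 to 2, 0 to 0 and 0 to 0 at day 3; and 0 to 2, 6 to 10, 6 to 10, 9 to 12 and 0 to 3 at day 5. Over time they were 30 to 32, 42 to 43 and 40 to 41 for the 3 steps. A library left out of a group of 2 leaves a lone library assumed to vary like those of the other groups.

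Of single genes, 6212 values kept their call, 425 lost it and 9 changed sign. On log2 TPM these were E2F2 in sgZBTB11 #1 (0.0344) and POLE4 in sgNS (0.20) at 5 hr, the net change of E2F4 at 5 hr (-0.0709), POLE (0.0012) and CHTF18 (0.0190) in sgNS at day 1, and TPX2 at day 5 in sgNS (-0.0357) and net (0.0333). With length and GC trends removed they were KIF11 in sgZBTB11 #1 (-0.00713) and net E2F4 (-0.00836) at 5 hr. Low counts limited precision for PRIM1, whose day 5 time step had an SE of 0.105, against 0.022 for TYMS.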
